A study of Homo sapiens with 121 samples.

Results

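Human embryonic stem cells (hESCs) grow as tight epithelial colonies, and a set of proteins on their surface is used to recognise and sort them. The set described here holds 10 genes, *EPCAM*, *CDH1*, *CLDN6*, *DSP*, *PODXL*, *CD24*, *PROM1*, *CD9*, *THY1* and *ALPL*, a list given by name out of the 25610 genes read in the expression table. Surface proteins of this kind serve in cell contact (cadherins, claudins and desmosomes join neighbouring cells), in holding cells apart (charged sialomucins), in arranging the membrane (tetraspanins and prominin) and as glycosylphosphatidylinositol (GPI) anchored enzymes and receptors. Several of them are lost or gained when hESCs leave the pluripotent state. RNA was measured here, so nothing is known of the proteins at the surface.

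The study took single hESCs of the WA26 line, grown without feeder cells on Matrigel in E8 medium, and measured relative telomere length and the transcriptome in the same cell. Polyadenylated RNA was pulled away with biotinylated oligo-dT and turned into cDNA, and the genomic DNA left behind went into quantitative PCR, where telomere signal (T) is divided by Alu signal (R). A high T/R ratio means long telomeres. The 121 cells carry the labels long telomere (81 cells), medium telomere (25 cells) and short telomere (15 cells), all of 1 line and with no treatment or genetic change named. The labels name no culture or batch, so each group counts as 1 sample. Differences between groups are therefore given as descriptions with no test, and the SD is the spread between cells.

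Values are in TPM, in which each gene's share of the transcripts is expressed on a common total. The lowest value above 0 of a gene had a median of 0.34 TPM among the shortest transcripts (up to 1708 bases, 1560 genes) and 0.05 among the longest (from 7492 bases, 1556 genes), as values divided by length would give, so levels are compared between genes here on that basis. The values do not hold the number of reads per cell. The count of genes above TPM 1, called detected genes below, ran from 2030 to 11515 per cell, and was 8296 ± 2152 in long telomere cells (SD, n = 81), 7980 ± 2070 in medium (n = 25) and 5784 ± 2355 in short telomere cells (n = 15). Cells were therefore also described in 2 sets, 68 cells over 8000 detected genes (51 long, 14 medium, 3 short) and 53 cells up to 8000 (30 long, 11 medium, 12 short), a border placed after values of these data had been seen. The hESC label held in the data. All 10 genes of a pluripotency list had a mean TPM over 10, and *POU5F1* was above TPM 1 in 121 of 121 cells. Of marker lists for mesoderm (8 genes), endoderm (7) and trophoblast and amnion (8), 0 genes reached a mean TPM of 10, and of a neural ectoderm list (6 genes) 1 did, *NES*, at 18.6 TPM and above TPM 1 in 100 of 121 cells. The lists were not silent. The highest means of the first lists were of *KDR* (8.09 TPM, above TPM 1 in 67 cells), *CER1* (1.59 TPM, 7 cells) and *KRT7* (6.39 TPM, 46 cells). A mean under 1 was found for 6 mesoderm, 5 endoderm, 7 trophoblast and amnion and 3 neural ectoderm genes.

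The markers spanned a wide range of levels. *CD24* was the most abundant at 980.4 ± 543 TPM (SD, n = 121), rank 188 of 25610 genes, and *DSP* the least abundant at 20.3 ± 18.1 TPM, rank 4089. Between them stood *CD9* (490.2 TPM), *CLDN6* (295 TPM), *EPCAM* (288 TPM), *THY1* (142 TPM), *PODXL* (80.5 TPM), *CDH1* (65.9 TPM), *ALPL* (41.5 TPM) and *PROM1* (37.8 TPM) as means over all cells. *CD24* alone made up 40.2% of the summed mean TPM of the 10 genes. The order of neighbours held in most cells at the top, where *CD24* exceeded *CD9* in 107 of 121 cells and *CD9* exceeded *CLDN6* in 99. Some neighbours were not separated within cells. *CLDN6* exceeded *EPCAM* in 55 of 121 cells, *PODXL* exceeded *CDH1* in 68, and *ALPL* exceeded *PROM1* in 62.

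**Figure D1:**
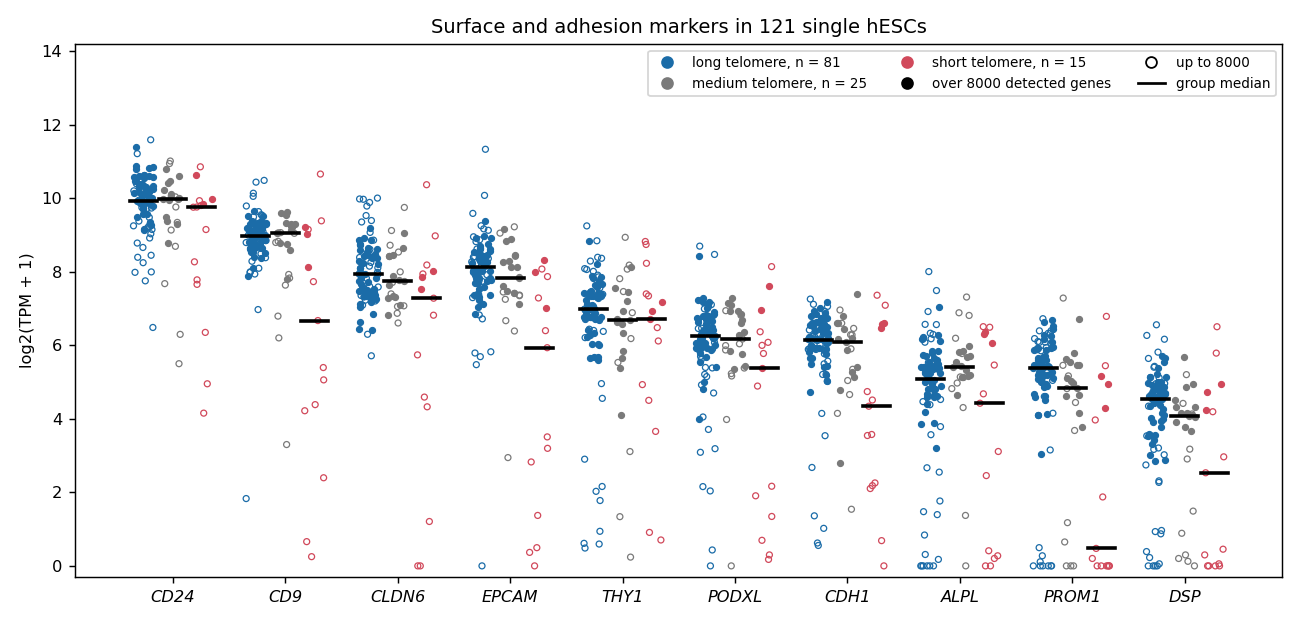
Each point is 1 cell, with log2(TPM + 1) on the vertical axis and the 10 genes from highest to lowest mean along the horizontal axis, in long (n = 81), medium (n = 25) and short (n = 15) telomere cells. Filled points are cells over 8000 detected genes, open points the other cells, and bars the group medians, and every point at or below TPM 1 is open.

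Of the markers, 7 were above TPM 1 in at least 90% of cells. *CD24* was so in all 121 cells, *CD9* and *CLDN6* in 119, *EPCAM* and *CDH1* in 117, *PODXL* in 115 and *THY1* in 114. The less abundant genes were missed more often, with *ALPL* above TPM 1 in 106 cells, *PROM1* in 100 and *DSP* in 99. *PROM1* was listed at 0 in 15 cells, and *DSP* and *ALPL* in 9 each. All 10 genes were above TPM 1 together in 87 of 121 cells, and this followed the number of detected genes: 68 of 68 cells over 8000 detected genes held all 10, against 19 of 53 of the other cells. By label the numbers were 63 of 81 long, 19 of 25 medium and 5 of 15 short telomere cells. The sets over and up to 8000 are themselves defined by the number of genes above TPM 1, so part of the contrast between them is built in. These counts were not set beside those of other genes of like level.

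Among the adhesion genes, *EPCAM* encodes the epithelial cell adhesion molecule, a surface protein of epithelia and of hESC colonies. It lies at chr2:47572297-47614740 on the plus strand (GRCh37). *EPCAM* ranged from 0 to 2582 TPM with a median of 282 in long telomere cells, from 6.71 to 598 with a median of 227 in medium, and from 0 to 320.3 with a median of 60.2 in short telomere cells. The ranges overlapped, but only 1 of the 15 short telomere cells exceeded the median of the long telomere cells. *EPCAM* showed the widest gap of the set, a mean log2(TPM + 1) of 7.98 ± 1.28 in long (SD, n = 81) against 4.71 ± 3.15 in short telomere cells (SD, n = 15). The gap of 3.27 was larger than that of 98.6% of the 6213 genes whose mean TPM was 10 or more, the genes compared throughout. The long telomere cell with the highest *EPCAM* level held only 4366 detected genes, and without it the gap was 3.22.

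*CDH1* (E-cadherin, the calcium-dependent protein of adherens junctions; chr16:68771195-68869440, plus strand) was at a median of 70.2 TPM in long (0.47 to 152), 67.3 in medium (1.91 to 168) and 19.3 in short telomere cells (0 to 164). Its highest level in short telomere cells passed the highest level in long ones. *CLDN6*, a claudin of tight junctions found mainly in embryonic epithelia and pluripotent cells (chr16:3064713-3070072, minus strand), ran from 51.6 to 1028 TPM with a median of 246 in long and from 0 to 1323 with a median of 155 in short telomere cells. The cell with the most *CLDN6* was thus a short telomere cell. *DSP* (desmoplakin, which ties desmosomes to keratin filaments; chr6:7541571-7586947, plus strand) had a median of 22.4 TPM in long, of 16.0 in medium and only 4.79 in short telomere cells. Exons of *CLDN6* overlap *TNFRSF12A* on the other strand, and those of *DSP* and *CDH1* overlap non-coding genes on the other strand. Without stated use of strand, reads from such overlaps cannot be told apart.

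Of the 2 sialic acid-rich glycoproteins, *PODXL* (podocalyxin, the carrier of the TRA-1-60 and TRA-1-81 epitopes used to stain hESCs; chr7:131185021-131242976, minus strand) had a median of 74.9 TPM among long, 71.2 among medium and 40.5 among short telomere cells. *CD24*, a small mucin-like protein, was at medians of 965 TPM in long (88.7 to 3088), 1007 in medium (44.3 to 2069) and 865 in short telomere cells (16.8 to 1855). Its lowest level in any cell was 16.8 TPM. Its gene is not placed in the annotation used here, which holds 4 *CD24* pseudogenes on chromosomes 1, 3, 15 and Y. Near-identical copies can share reads with the gene, so the *CD24* level is uncertain.

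Of the membrane organisers, *PROM1* (CD133, a cholesterol-binding protein of membrane protrusions; chr4:15964699-16086001, minus strand) had a median of 40.8 TPM among long, 27.5 among medium and 0.39 among short telomere cells. In 8 of the 15 short telomere cells it was at or below TPM 1, against 9 of 81 long telomere cells. *CD9*, a tetraspanin that gathers integrins and other proteins in the membrane (chr12:6308881-6347437, plus strand), had medians of 506 TPM in long (2.56 to 1436), 529 in medium (8.86 to 788) and 101 in short telomere cells (0.19 to 1618). Here too a short telomere cell held the highest level.

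Of the GPI-anchored genes, *THY1* (CD90, an immunoglobulin-like surface protein; chr11:119286186-119295695, minus strand) had a median of 125 TPM among long, 102 among medium and 104 among short telomere cells. *ALPL*, the tissue-nonspecific alkaline phosphatase whose activity is a classical stain for hESCs (chr1:21835890-21904903, plus strand), had a median of 33.0 TPM among long, 41.4 among medium and 20.5 among short telomere cells. *ALPL* was the only one of the 10 with both a higher mean and a higher median TPM in medium than in long telomere cells. Its mean log2(TPM + 1) was 4.56 in long and 5.19 in medium, a difference of -0.63, lower than that of all but 3.11% of genes. Exons of *THY1* overlap antisense genes, and those of *ALPL* and *PROM1* a gene on the same strand.

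The first comparison of the design was that of long with short telomere cells. On the log2(TPM + 1) scale the mean of each of the 10 genes was higher in long telomere cells, as was that of 90.9% of all 6213 genes. For 9 of the 10 the gap was at least 1 unit, but 66.5% of all genes were higher by as much and 1.71% lower. The median difference was 1.67 over the 10 genes and 1.40 over all genes. Below *EPCAM* (3.27) stood *CD9* (2.73), *PROM1* (2.65), *CLDN6* (2.10), *CDH1* (1.68), *PODXL* (1.67), *DSP* (1.51), *CD24* (1.23), *ALPL* (1.04) and *THY1* (0.63). Against the median of all genes, *EPCAM*, *CD9*, *PROM1* and *CLDN6* were further apart. *CDH1*, *PODXL* and *DSP* lay a little above it, past 62.5%, 62.1% and 54.8% of genes. *CD24*, *ALPL* and *THY1* were less far apart than most genes. When TPM was rescaled per cell with a median of ratios (602 genes above 0 in all cells), the median difference was 1.18 over the 10 genes and 1.02 over all genes, and that of *THY1* turned to -0.12.

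The number of detected genes moved with this comparison. Among the 68 cells over 8000 detected genes, the long telomere cells were higher by 1 unit for 0 of the 10 genes (12.7% of all genes) and 1, *ALPL*, was lower (6.94% of all genes). The median difference was 0.02 over the 10 genes and 0.04 over all genes, with 51 long and only 3 short telomere cells. Here *EPCAM* differed by 0.29 (-0.0890 to 0.56 with cells left out 1 at a time), *PROM1* by 0.56, *CD9* by 0.18 and *CLDN6* by 0.05, whereas *CDH1* (-0.34), *PODXL* (-0.29), *DSP* (-0.19) and *CD24* (-0.00399) had the other sign. *EPCAM* was at 129, 255 and 320.3 TPM in the 3 short telomere cells and from 115 to 669.7 TPM in the 51 long ones. All 3 lay within the range of the long telomere cells.

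*ALPL* was at 65.7, 78.8 and 81.0 TPM in the same 3 short telomere cells. In the 51 long telomere cells it ran from 8.16 to 132 TPM with a median of 37.5, so that each of the 3 exceeded the median and none exceeded the range. In the 14 medium telomere cells of this set the highest value was 62.8 TPM, below all 3. The difference of long minus short was -1.02, lower than that of all but 6.62% of genes, and ran from -1.11 to -0.97 when cells of the set were left out 1 at a time. Its place past 1 unit thus rested on single cells. *VIM*, an intermediate filament gene of the mesenchymal list, also differed in this direction, by -2.35. It was the gene whose level ranked most like that of *ALPL* in these cells (rho = 0.389, n = 68). In cells up to 8000 detected genes this rho was 0.150. The cells that gave the ranking include the same 3 short telomere cells. The shared direction of *VIM* is therefore partly built in and is no separate evidence for that of *ALPL*. The other 2 genes of the mesenchymal list that were compared differed by -0.43 (*CDH2*) and -0.18 (*COL1A2*). In all cells, by contrast, *ALPL* was higher in long telomere cells by 1.04, so its direction depends on the cells taken.

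Among the 53 cells up to 8000 detected genes, the long telomere cells were higher by 1 unit for 8 of the 10 genes, where 51.0% of all genes were so and 3.90% were lower. The median difference was 1.57 against 1.03 over all genes. *EPCAM* differed by 3.87, more than 99.4% of genes, with medians of 298 TPM in 30 long and 9.29 TPM in 12 short telomere cells. None of the 12 exceeded the long median. *CD9* differed by 3.24, *CLDN6* by 2.85 and *PROM1* by 2.44, and *THY1* by 0.09. Within this set the short telomere cells still had fewer detected genes (4933 ± 1719, SD, n = 12, against 5755 ± 1096, n = 30), and their 50 most abundant genes took more of the total (344580 ± 85072 against 246233 ± 33070 TPM). The part of these in the differences was not tested. With cells of 4000 to 8000 detected genes alone (30 long, 8 short), a set chosen after seeing the data, *EPCAM* differed by 2.18, *PROM1* by 2.56, *CLDN6* by 2.03 and *CD9* by 1.97, while *THY1* differed by -0.80, and 6 of 10 genes against 41.8% of all genes were higher by 1 unit. With cells of that set left out 1 at a time the count ran from 4 to 7.

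**Figure D2:**
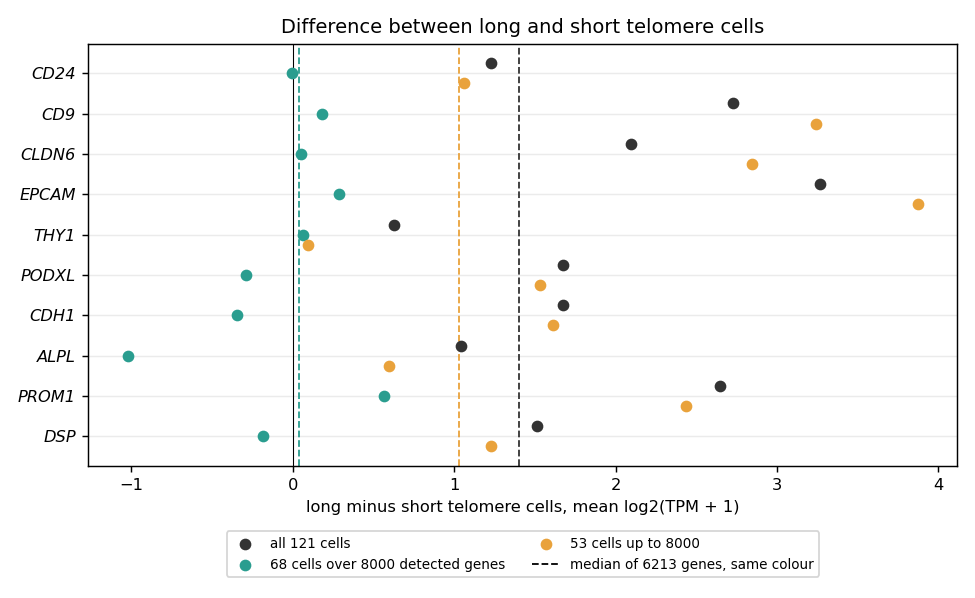
For each gene, the difference in mean log2(TPM + 1) of long minus short telomere cells is shown for all 121 cells, the 68 cells over 8000 detected genes and the 53 others, with dashed lines at the median of 6213 genes. *EPCAM* lies furthest right in all cells (3.27) and in cells up to 8000 (3.87), and the points of cells over 8000 lie between -1.02 (*ALPL*) and 0.56 (*PROM1*).

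Medium telomere cells entered both other comparisons and so shared cells with the first. Between long and medium, 0 of the 10 genes differed by 1 unit, where 1.75% of all genes were higher and 0.660% lower in long. The gaps ran from -0.63 for *ALPL* to 0.68 for *PROM1*. In cells over 8000 detected genes 0 of 10 differed so, where 1.29% of all genes were higher and 0.708% lower. In the other cells *CD9* (1.06), *DSP* (1.05) and *PROM1* (1.03) were higher in long, beside 10.9% of all genes, and *ALPL* (-1.44) was lower, beside 7.84%, but with cells left out 1 at a time the first count ran from 0 to 3. Between medium and short, 7 of 10 genes were higher in medium by 1 unit, beside 59.9% of all genes, with *EPCAM* (3.01) again first, and 0 were lower, beside 2.01%. In cells over 8000 detected genes 0 of 10 differed so between medium and short, beside 12.7% of all genes higher and 9.14% lower. In the other cells 7 of 10 were higher in medium, beside 47.4% of all genes, and 0 lower, beside 5.09%.

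The T/R ratio of each cell gave a second view of the same question, without borders between groups. Over all 121 cells the Spearman rank correlation with the T/R ratio was positive for 9 of the 10 genes, beside 81.6% of all genes, with a median of 0.162 against 0.0963 over all genes. *PROM1* (rho = 0.345) and *EPCAM* (rho = 0.333) ranked 30 and 46 from the top of 6213 genes. *CLDN6* (0.233) and *DSP* (0.230) followed, and *ALPL* was the lowest at -0.0631. Pearson's r on TPM was 0.252 for *PROM1* and 0.290 for *EPCAM*. When the 2 cells of most extreme T/R ratio were left out, rho was 0.325 for *PROM1* and 0.378 for *EPCAM*. Such correlations across cells of single libraries are weak and are given as descriptions with no p.

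The 2 leading genes differed in where their correlation lay. *PROM1* had nearly the same rho in the 68 cells over 8000 detected genes (0.338, rank 36) as in the 53 others (0.323, rank 613), and 0.322 over all cells given the number of detected genes. *EPCAM* stood at 0.0890 in cells over 8000 and at 0.500 in the others, where it ranked 35. In those 53 cells the T/R ratio itself was lower where the 50 most abundant genes took more of the total (rho = -0.483), as was *EPCAM* (-0.442), and given that total the rho with the T/R ratio was 0.365 for *EPCAM* and 0.255 for *PROM1*. The T/R ratio also went with the mean transcript length (0.355) and mean GC (-0.296) of the cell. Given that length, the rho with the T/R ratio was 0.428 for *EPCAM*, 0.271 for *PROM1* and -0.0212 for *CD24* (0.141 before). Given that GC, these were 0.451, 0.225 and -0.0452. The part of these measures in the correlations was not tested beyond these values. *DSP* was alike in both sets (0.226 and 0.242). *CD9* changed sign, from -0.130 over 8000 to 0.350 in the other cells, and *ALPL* was negative in both (-0.215 and -0.00816). Within the long telomere cells alone *EPCAM* had a rho of 0.123 and *PROM1* of 0.134 (n = 81), beside a median of -0.0748 over all genes. In the 15 short telomere cells *EPCAM* reached 0.689, whereas *PROM1* stood at 0.238, below the median of 0.294 over all genes. Given the number of detected genes *EPCAM* stood at 0.494 there, beside a median of 0.0908. In the 25 medium telomere cells *EPCAM* stood at 0.00885 and *PROM1* at 0.0454, beside a median of 0.0763.

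**Figure D3:**
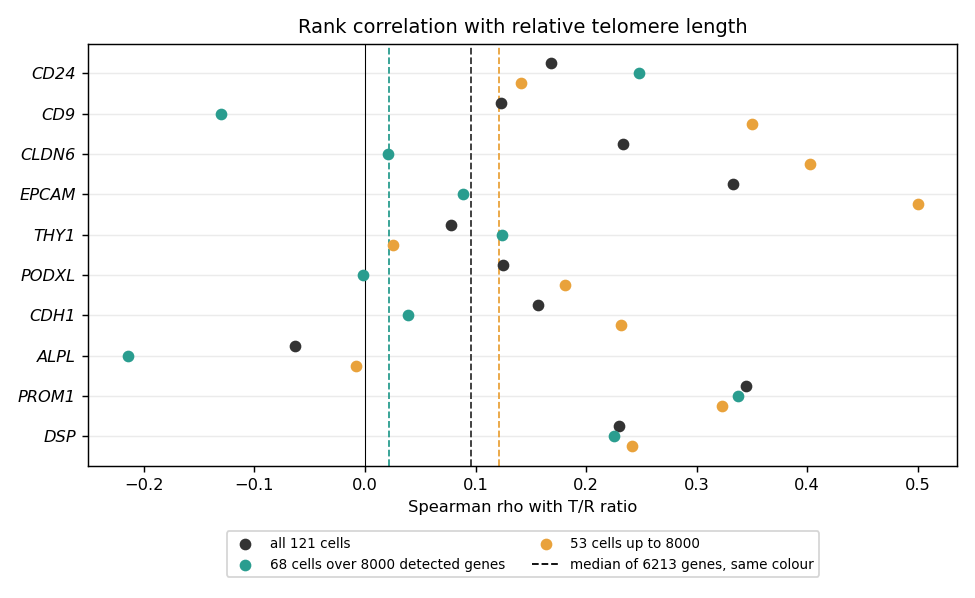
The Spearman rank correlation of each gene's TPM with the T/R ratio is shown for all 121 cells, the 68 cells over 8000 detected genes and the 53 others, with dashed lines at the median of all genes. The 3 points of *PROM1* (0.345, 0.338 and 0.323) lie together, whereas those of *EPCAM* run from 0.0890 to 0.500.

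Coexpression was described in the 68 cells over 8000 detected genes, where every member was measured above TPM 1 in every cell. The 10 genes did not vary as a block. The median rho over their 45 pairs was 0.0286, beside 0.0126 over all gene pairs, and 25 of 45 were positive. There were 4 pairs above 0.3, namely *PODXL* and *CD24* (0.439), *CD24* and *PROM1* (0.400), *CDH1* and *PROM1* (0.347) and *CDH1* and *PODXL* (0.309), and 2.19% of all gene pairs were so. Below -0.3 lay *CLDN6* and *CD24* (-0.455) and *CLDN6* and *PODXL* (-0.303), where 1.44% of all pairs lay. The adhesion genes did not stay together, since *EPCAM* and *CLDN6* had a rho of 0.285 but *EPCAM* and *CDH1* one of -0.0178 and *CDH1* and *CLDN6* one of 0.000916. *THY1* was negative with 8 of the other 9 genes and positive with *CLDN6* (0.236).

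In the 53 cells up to 8000 detected genes 44 of 45 pairs were positive and the median rho was 0.220, beside 0.0750 over all gene pairs. Above 0.3 lay 12 of the 45, beside 8.09% of all gene pairs. *EPCAM* and *CLDN6* led there with 0.532, followed by *CDH1* and *CLDN6* (0.481) and *CDH1* and *PROM1* (0.459). *CLDN6* and *CD24* had a rho of 0.215, the other sign from cells over 8000. Only *CD24* and *THY1* stayed negative (-0.205). The pairs *CDH1* and *PROM1*, *CDH1* and *PODXL*, *PODXL* and *CD24* were above 0.3 in both sets of cells. The share of positive pairs over all gene pairs was not counted in either set.

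**Figure D4:**
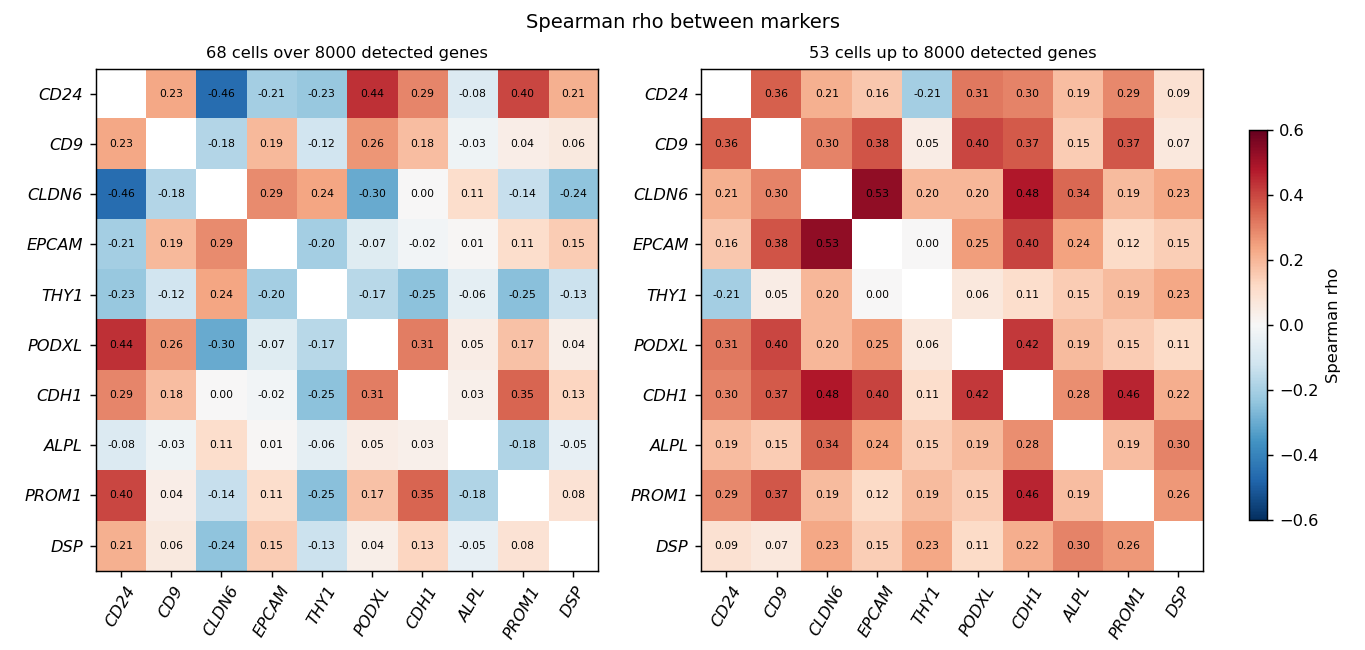
Spearman rho between each pair of the 10 genes is printed and coloured from blue (negative) to red (positive) in 68 cells over 8000 detected genes on the left and 53 cells up to 8000 on the right. The left square is mixed, from -0.455 (*CLDN6* and *CD24*) to 0.439 (*PODXL* and *CD24*), and the right one is positive except for *CD24* and *THY1* (-0.205).

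*CLDN6* and *CD24* were the most opposed pair in cells over 8000 detected genes. *CLDN6* ran there from 84.9 to 579 TPM with a median of 223, and *CD24* from 438 to 2698 TPM with a median of 1124. Base composition moved with this contrast. For each cell, the mean GC content of its transcripts, weighted by TPM, was computed from annotated transcripts. *CLDN6* was higher in cells of higher mean GC (rho = 0.762, above 99.98% of genes), while *CD24* (-0.536) and *PODXL* (-0.433) were lower in them. In the 53 other cells the rho of *CLDN6* with this measure had the other sign (-0.163), and over all cells it was 0.225. In cells over 8000 and given this measure, the rho of *CLDN6* and *CD24* was -0.0862, that of *CLDN6* and *PODXL* was 0.0451, and that of *PODXL* and *CD24* was 0.273. That of *CD24* and *PROM1* (0.348), of *CDH1* and *PROM1* (0.329) and of *EPCAM* and *CLDN6* (0.367) remained of like size.

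The transcripts of the members differ in base composition. *ALPL* (59.3% GC), *CLDN6* (59.2%) and *THY1* (56.1%) have the richest transcripts, and those 3 had the highest rho with the cell's mean GC (0.230, 0.762 and 0.298). The other 6 with a transcript in the annotation lie between 43.2% (*PROM1*) and 51.4% (*PODXL*), and their rho ran from -0.433 to 0.0628 (*EPCAM*). Over all genes split into 4 bins by transcript GC, the median rho was -0.168 in the lowest bin (1434 genes) and 0.0950 in the highest (1434 genes). Each gene with an annotated transcript is itself part of the mean, which leaves out *CD24*, and the part of base composition in the coexpression was not tested beyond these values.

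The promoters of *CLDN6* and *CD24* are shown as those of the most opposed pair, though the transcript GC of *CD24* was not known. They are the 250 bases before the annotated start, for *CD24* the most upstream of its 3 starts (RefSeq, GRCh38.p14), written 5′ to 3′, with GC boxes (GGGCGG, or CCGCCC on the other strand) in capitals.
CLDN6: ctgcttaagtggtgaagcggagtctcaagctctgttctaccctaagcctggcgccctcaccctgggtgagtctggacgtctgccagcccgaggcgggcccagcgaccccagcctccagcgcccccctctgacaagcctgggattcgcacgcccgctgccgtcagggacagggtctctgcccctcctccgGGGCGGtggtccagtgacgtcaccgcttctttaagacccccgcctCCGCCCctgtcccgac
CD24: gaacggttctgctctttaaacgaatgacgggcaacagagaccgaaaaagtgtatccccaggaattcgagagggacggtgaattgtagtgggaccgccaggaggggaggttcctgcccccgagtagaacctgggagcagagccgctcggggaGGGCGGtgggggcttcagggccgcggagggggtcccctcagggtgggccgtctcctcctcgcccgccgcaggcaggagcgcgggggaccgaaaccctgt
The *CLDN6* sequence lies at chr16:3018184-3018433 and the *CD24* one at chr6:106975628-106975877, both on the minus strand. The former holds 68% GC and 18 CpG, and 2 GC boxes, and the latter 65.6% GC and 20 CpG, and 1 GC box. Both are above the median promoter (58% GC, 11 CpG), and 42.6% of 35116 promoters hold a GC box. Neither holds the E-box CAGGTG (or CACCTG), found in 17.5% of promoters, nor TATAAA on either strand, found in 10.7%.

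**Figure D5:**
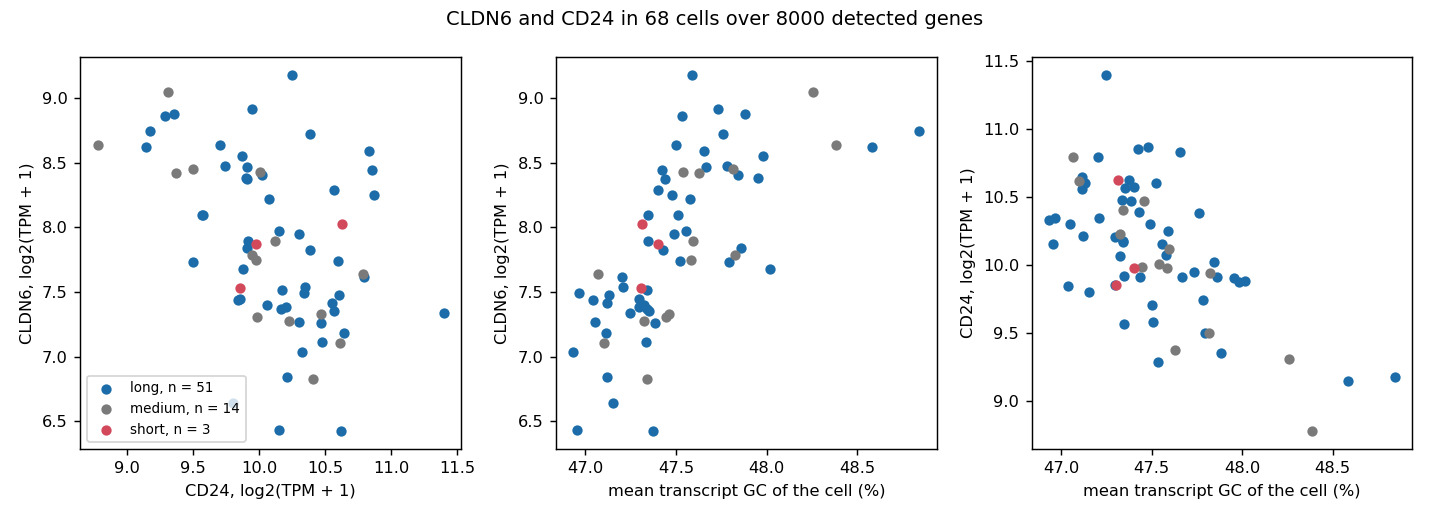
Each point is 1 of the 68 cells over 8000 detected genes, showing *CLDN6* against *CD24* on the left, and *CLDN6* and *CD24* against the mean GC content of the cell's transcripts in the middle and on the right, with levels as log2(TPM + 1). The rho of *CLDN6* is -0.455 with *CD24* and 0.762 with the GC measure, and that of *CD24* with the GC measure is -0.536.

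For each member the genes whose level ranked most like its own in these 68 cells were sought among 6213 genes, so each rho is a maximum over many. *CLDN6* was nearest to *MFAP2*, a microfibril protein gene (0.763), then *ACTB* (0.597) and *LSR*, a receptor of tricellular junctions (0.589). Given the GC measure these were 0.593, 0.375 and 0.395, and in the 53 other cells the first stood at 0.211 while *ACTB* stood at 0.588. *EPCAM* was nearest to the nectin gene *PVRL2* (0.529, and 0.228 in the other cells) and *CDH1* to *DNA2* (0.577, and 0.282). *PODXL* and *CD24* shared their nearest gene, *SLC35A5*, a member of the nucleotide sugar transporter family (0.648 and 0.606). In the other 53 cells its rho with *PODXL* was -0.00914 and with *CD24* 0.469. *PROM1* was nearest to *UTP20* (0.609, and 0.274 in the other cells), *THY1* to the kinetochore gene *NDC80* (0.554, and -0.0705) and *DSP* to *UGDH* (0.526, and 0.107). *CD9* was nearest to *TMED2* (0.503, and 0.419) and *ALPL* to *VIM* (0.389, and 0.150).

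The members also differed in how evenly cells expressed them. Over the 68 cells the coefficient of variation was lowest for *CD9* (0.251), followed by *CD24* (0.335), *CDH1* (0.385) and *EPCAM* (0.394), and highest for *PODXL* (0.508) and *THY1* (0.518). The median over the 5828 genes whose mean TPM was 10 or more in these cells was 0.628. Set against a curve of variation on mean level, *DSP* varied less than all but 3.33% of genes and *CD9* less than all but 12.0%. *THY1* (78.8%) and *CLDN6* (75.8%) stood above most genes at their level.

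Partners of the markers were taken from lists chosen by function, of which 60 of 96 genes had a mean TPM of 10 or more. Of these 60, 49 were higher in long than in short telomere cells by 1 unit and 0 lower, beside 66.5% and 1.71% of all genes, with a median difference of 1.80 against 1.40 over all genes. The counts of the single lists below stand beside the same 66.5%, and most are of few genes. In the adherens junction list 7 of 9 were higher, among them *CTNNB1* (β-catenin, 1.86) and *CTNND1* (p120-catenin, 3.06). In the desmosome list 5 of 5 were higher, with *PKP4* at 2.07 and *PERP* at 2.02, and in the tight junction list 8 of 10, with *CLDN7* at 2.83. The tetraspanin list had 7 of 10 (*CD63* 1.34, *CD151* 2.62), the integrin list 3 of 3 (*ITGB1* 2.65), the list of podocalyxin relatives and linkers 3 of 4 (*SLC9A3R1* 2.11, *EZR* 0.93), that of *EPCAM* relatives and cleaving enzymes 5 of 5 (*ADAM10* 2.32, *PSENEN* 2.24) and that of other hESC surface proteins 12 of 15 (*BSG* 1.92, *SLC7A5* 2.31). In cells over 8000 detected genes 1 of the 60, *SLC7A5* (1.45), was higher and 6 were lower, beside 12.7% and 6.94% of all genes, and the median difference was 0.01 against 0.04.

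An epithelial list had 5 of 9 tested genes higher in long telomere cells by 1 unit, again beside 66.5% of all genes, with *SPINT2* at 2.80 and *KRT18* at 0.50. Of 14 genes of a mesenchymal list only 3 were tested and 0 passed 1 unit, with *VIM* at 0.98, and 3 were listed at 0 in every cell. The pluripotency list had 7 of 10 higher, near the share of all genes, with *GDF3* at 3.38 and *POU5F1* at 0.93. A cell stress list had 3 of 3 tested genes higher (*GADD45A* 1.60, *ATF3* 1.11, *FOS* 1.06). In cells over 8000 detected genes *GADD45A* was at -1.51 and *FOS* at -1.57, but *ATF3* at 1.01. The 1 tested gene of a neural ectoderm list, *NES*, differed by 0.42.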

How the data were processed

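Processed expression of 121 single WA26 cells was deposited as 1 table of TPM values, which the authors made from Smart-seq2-type libraries. Their methods name TopHat and HTSeq on hg19, and the submitters' processing notes name TopHat2, RSEM and hg19, so the step that gave TPM is uncertain, though low values scale with transcript length. The table was read to 25610 complete genes; 1 incomplete row was dropped and later symbols were not analysed here. TPM summed to 979828 to 997050 per cell. The values do not hold read counts, so precision rests on the spread between cells. Groups came from the sample titles, and T/R ratios from the study's table of cells. Differences are of mean log2(TPM + 1), with a pseudocount of 1, over 6213 genes whose mean TPM was 10 or more; rank correlations used TPM. Python 3.11.15, pandas 2.3.3, numpy 2.4.6 and scipy 1.17.1 were used, and scripts were tested on simulated data. Transcript GC came from the longest GENCODE transcript (GRCh37), matched for 85.2% of genes and at least 76.4% of TPM in each cell. The members, gene lists and border of 8000 were chosen with earlier results of these data known. Named genes were the 10 markers, the 3 nearest genes of each, and per list the gene of highest mean and of largest difference, of which not all are printed.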

Additional observations from a re-analysis of the deposited data

How the results depend on the processing

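Over long against short telomere cells, 9 of the 10 genes were higher by 1 log2 unit with a median of 1.67. With a pseudocount of 0.1 the median was 2.28, and with 10 it was 1.10. In cells over 8000 detected genes the count was 0 and the median 0.0235, and *CDH1* (-0.34), *DSP* (-0.19), *PODXL* (-0.29), *CD24* (-0.00399) and *ALPL* (-1.02) took the other sign. By medians in place of means the count was 5. Between the 40 cells of highest and the 40 of lowest T/R ratio it was 3, with *ALPL* at -0.0936. The median there was 0.81, beside 0.46 over all genes. Of alternatives chosen after seeing the data, a linear adjustment for detected genes gave 4, with a median of 0.83 and *ALPL* at -0.22. Cells of 4000 to 8000 detected genes, also chosen so, gave a median of 1.14, beside 0.78 over all genes. The share of all genes past 1 unit was not computed by medians, between the cells of extreme T/R ratio or under the linear adjustment. Over all 21080 genes above TPM 0 in any cell, 24.8% were higher by 1 unit in long telomere cells, against 66.5% of the 6213 compared. The markers above TPM 1 in 90% of cells numbered 7, against 9 above TPM 0 and 5 above TPM 10. The median rho between members was 0.0286 in cells over 8000, 0.213 in all cells and 0.220 in cells up to 8000. The median of the variation residual (log10) was -0.0672 in cells over 8000 and -0.181 in all cells. The median rho with the T/R ratio was 0.162, and ran from 0.0639 to 0.237 over 8 alternatives, each less than 0.1 away. Single genes moved more. In cells over 8000 *EPCAM* went from 0.333 to 0.0890 and *CD9* from 0.123 to -0.130, while *PROM1* went only from 0.345 to 0.338. The cause of these shifts was not tested. No paired analysis was possible because the numbers in the titles only name cells and the results come from no test. Cells were left out 1 at a time within the sets of detected genes, chosen after seeing the data. The count of genes higher in long than in short telomere cells was 0 over 8000, 7 to 8 up to 8000 and 4 to 7 from 4000 to 8000. *PODXL* over 8000 ran from -0.93 to 0.20. This was not run for the groups as a whole, which hold 15 or more cells. TPM does not hold the read count, so a gene listed at 0 may still be present, and 1 line with no named cultures limits every comparison.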

Other observations

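In 6 cells fewer than 7 of the 10 markers were above TPM 1, all of them with at most 6046 detected genes. A short telomere cell with 3481 detected genes held 1, *CD24* at 894 TPM, beside *POU5F1* at 2135 TPM. Another with 2030 detected genes held 3, *THY1* at 168 TPM, *CLDN6* at 112 TPM and *CD24* at 16.8 TPM, the lowest *CD24* of the series. A further short telomere cell (6046 detected genes) held 6, with a summed level of 277 TPM, the lowest over the 10 genes. *POU5F1* was at 332 TPM or more in each of the 6, so low marker counts stood beside measured *POU5F1* RNA. The other genes of the pluripotency list were not looked at in these cells.

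Also among these 6 cells, a long telomere cell with 4366 detected genes held 6 markers but the highest summed level, 6915 TPM. It carried the highest *EPCAM* (2582 TPM) and *PODXL* (415 TPM) of the series, with *CD24* at 2378 TPM and *CD9* at 1389 TPM. In the same cell *DSP*, *PROM1* and *ALPL* were listed at 0 and *CDH1* was at 1.57 TPM. A second long telomere cell of the 6 (4217 detected genes, 4 markers) was the reverse for *EPCAM* and *PODXL*, both listed at 0, with *DSP* at 76.2 TPM.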
